A study of Mus musculus with 6 samples.

Results

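CC chemokines are small secreted proteins that draw leukocytes along a gradient through G protein-coupled receptors, and they are named after a pair of adjacent cysteines near the start of the mature protein. The members followed here were chosen by symbol and are Ccl2, Ccl7 and Ccl12 (attractants of monocytes that act through Ccr2), Ccl3, Ccl4 and Ccl5 (inflammatory chemokines that draw monocytes and T cells, of which Ccl3 and Ccl5 bind Ccr1), Ccl6 and Ccl9 (rodent chemokines that act through Ccr1), Ccl22 (a ligand of Ccr4, the receptor of regulatory and type 2 helper T cells) and Ccl24 (a ligand of the eosinophil receptor Ccr3). They made up 10 of the 54532 genes in the deposited table, and all 10 were among the 8882 genes with a mean FPKM (fragments divided by gene length and library size) of at least 1. Macrophages are a major source of these proteins once pattern recognition receptors sense a fungus, and the mixture they release helps to decide which leukocytes are recruited.

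The libraries came from macrophages of WT mice (replicates 1, 2 and 3) and of mice without progranulin (PGRN KO, replicates 4, 5 and 6), all labelled C57BL/6J and all incubated with Candida albicans for 6 hours at 1 fungal cell per macrophage and 2000000 cells per well. The labels give macrophages from the peritoneal cavity, whereas the text of the study names bone marrow-derived cells. A legend of the study also gives another ratio of fungus to macrophages for its sequencing. Cells and dose are described here as the labels have them. The knockout covers the whole animal, the WT and PGRN KO mice came from different suppliers, and no source says that the 3 libraries of a genotype came from separate animals, so that p-values measure the spread between these libraries, which may be technical. Cells without fungus were not analysed here, and levels are therefore levels during challenge.

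The libraries held 15996786 to 17551619 counted fragments. Grn, which encodes PGRN, was at 323 to 337 FPKM in WT and at 0 to 0.0167 FPKM in PGRN KO. PGRN KO replicate 6 stood apart. Across tested genes, gene length was correlated (Spearman) with the deviation of each library from the mean of all 6 libraries. The correlation was -0.471 in PGRN KO replicate 6 and 0.151 to 0.243 in the other 5 libraries. The quality weight of this replicate from limma was 0.0899 against 1.07 to 3.79. Since all 10 CC chemokines are shorter (537 to 3045 bases) than the median tested gene (3856 bases), the value without this library is also given where leaving it out changed a call or moved a value by over 1.5 times. The macrophage markers summed to 7082 to 7416 FPKM in WT and 7231 to 9715 FPKM in PGRN KO, mostly from Lyz2 (5657 to 8135 FPKM). Among these markers Csf1r was called lower in PGRN KO (log2 fold change -0.38, adjusted p = 0.0178, limma). Mertk was called higher (0.81, adjusted p = 0.00640, limma), and the rest were not called. The 6 markers of resident peritoneal macrophages summed to 332 to 353 FPKM in WT and to 292 to 311 FPKM in PGRN KO. Most of this was Cd9 (269 to 329 FPKM), with Prg4 at 10.4 to 16.2 and Gata6 at 3.78 to 5.07 FPKM, while Timd4 and Selp were at most 0.204 and 0.120 FPKM. Of these markers Icam2 was called, from 3.10 FPKM in WT to 5.1 FPKM in PGRN KO (adjusted p = 0.00914, limma).

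Of the 10 genes, 8 lie on chromosome 11 in 2 groups, with 3 members from Ccl2 to Ccl12 (chr11:82035571-82103400, GRCm38, 67.8 kb) and 5 members from Ccl5 to Ccl4 (chr11:83525778-83664683, 139 kb). Both groups are on the chromosome of Grn, 18.8 to 20.4 Mb from it. Ccl22 lies on chromosome 8 and Ccl24 on chromosome 5. Ccl6 and Ccl9, which are neighbours, have 4 exons each, and the other 8 members have 3. The coding stretch around the cysteine pair is shown for the most abundant members (Ccl3 and Ccl4), for the neighbours Ccl6 and Ccl9, and for Ccl22 and Ccl24, which changed with genotype. The capitals mark the adjacent cysteine codons, the sequences are 45 coding bases within 1 exon, 5′ to 3′ on the strand of the gene, and they were read from the GENCODE transcripts of GRCm38.
Ccl3, chr11:83648631-83648675, minus strand: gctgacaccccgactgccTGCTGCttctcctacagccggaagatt
Ccl4, chr11:83663464-83663508, plus strand: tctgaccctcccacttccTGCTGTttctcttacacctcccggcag
Ccl6, chr11:83589365-83589409, minus strand: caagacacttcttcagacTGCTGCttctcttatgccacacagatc
Ccl9, chr11:83575905-83575949, minus strand: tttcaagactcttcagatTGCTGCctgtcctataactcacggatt
Ccl22, chr8:94746916-94746960, plus strand: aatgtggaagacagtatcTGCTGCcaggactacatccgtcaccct
Ccl24, chr5:135572644-135572688, minus strand: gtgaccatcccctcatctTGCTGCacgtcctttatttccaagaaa
The first of these cysteines is encoded by codon 50 in Ccl6 and codon 57 in Ccl9, and by codons 33 to 36 in the other 8 members. Over the whole coding sequence the closest pairs were Ccl3 and Ccl4 (68.4% identity over the aligned columns) and Ccl6 and Ccl9 (64.7%), and the most distant pair was Ccl2 and Ccl9 (40.0%). No stretch of 31 bases was shared between any pair of members, whereas 3.98% of such stretches in Ccl9 occurred in other genes, most often in Smarcb1, 1.02% in Ccl6 and at most 0.539% in the rest.

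The sequence before the start of the gene is shown for Ccl9 and Ccl6, which lie next to each other, and for Ccl22, so that the members that fell can be set beside a neighbour that did not pass. The sequences are from RefSeq (GRCm38.p6) and end at the annotated start, with 250 bases each for Ccl9 and Ccl6 and 156 bases for Ccl22. Promoters were found for 5 of the 10 members (Ccl3, Ccl6, Ccl9, Ccl12 and Ccl22). The capitals in Ccl9 mark 2 motif matches, TGANTCA (AP-1) and a kappaB site on the opposite strand, which begin 53 and 35 bases before the start.
Ccl9, chr11:83578637-83578886, minus strand: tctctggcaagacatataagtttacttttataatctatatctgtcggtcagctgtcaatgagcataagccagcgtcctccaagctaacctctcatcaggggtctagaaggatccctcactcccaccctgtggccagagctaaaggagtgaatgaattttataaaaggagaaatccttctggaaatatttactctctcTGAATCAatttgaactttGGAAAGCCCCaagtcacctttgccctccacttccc
Ccl6, chr11:83593088-83593337, minus strand: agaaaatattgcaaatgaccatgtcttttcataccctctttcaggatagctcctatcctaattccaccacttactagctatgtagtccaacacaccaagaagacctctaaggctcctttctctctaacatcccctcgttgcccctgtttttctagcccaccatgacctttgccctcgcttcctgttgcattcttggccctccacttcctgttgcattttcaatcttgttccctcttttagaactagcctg
Ccl22, chr8:94745434-94745589, plus strand: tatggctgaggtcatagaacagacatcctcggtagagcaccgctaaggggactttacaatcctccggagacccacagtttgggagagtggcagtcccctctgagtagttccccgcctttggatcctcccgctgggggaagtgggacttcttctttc
Of the 5 member promoters, 1 held a kappaB match and 1 an AP-1 match, both in Ccl9, searched on both strands. In 32851 mouse promoters the shares with a match were 7.25% and 6.75%. An interferon response motif (GAAA on both sides of any 2 bases) was in 0 of the 5 and in 2.98% of all promoters, and STAT motifs (TTC and GAA with any 3 or 4 bases between them) were in 0 of the 5 and in 12.4% of all. Ccl6 and Ccl9 shared a run of 13 bases, which begins 55 bases before the start of Ccl6 and 14 bases before that of Ccl9, and the other pairs shared at most 10 bases.

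The levels of the 10 transcripts spanned a wide range. Ccl3 and Ccl4 held ranks 2 and 3 among all genes, with means over the 6 libraries of 16641 and 14588 FPKM. They were followed by Ccl5 (1489 FPKM, rank 33), Ccl9 (751 FPKM, rank 58), Ccl7 (431 FPKM, rank 110), Ccl2 (399 FPKM, rank 118) and Ccl6 (359.8 FPKM, rank 130). Ccl22 was far lower (10.9 FPKM, rank 3015), and Ccl24 (2.77 FPKM) and Ccl12 (1.84 FPKM) were near the filter. The order held within every library except among Ccl7, Ccl2 and Ccl6 and between Ccl24 and Ccl12, whose neighbours changed places from library to library.

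**Figure D1:**
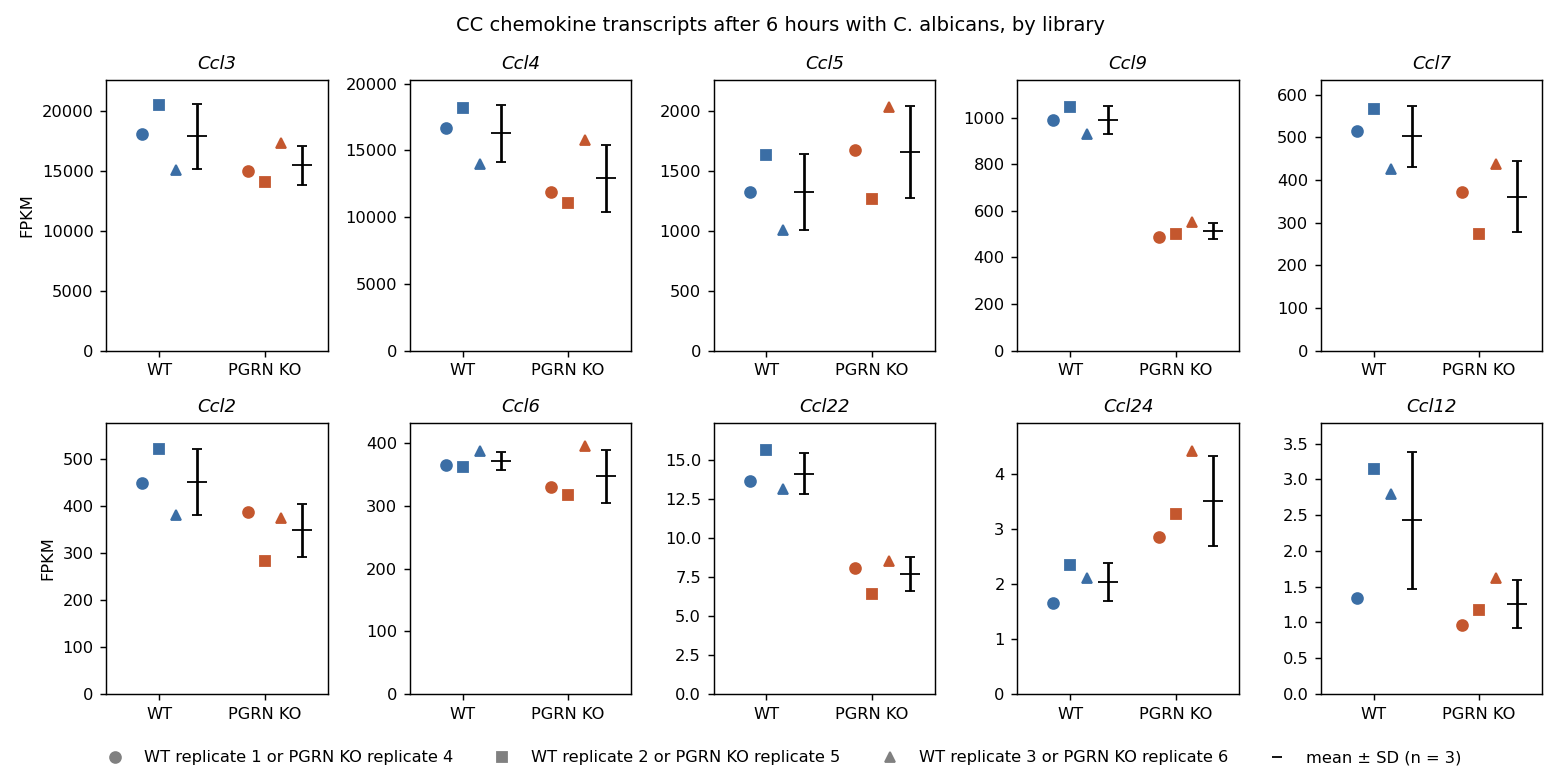
FPKM of each CC chemokine (vertical axes, linear and starting at 0, in order of mean level) in the 3 WT (blue) and 3 PGRN KO (orange) libraries, with the symbol shape giving the replicate and the bar the mean ± SD (n = 3). Ccl9 and Ccl22 lie lower and Ccl24 higher in every PGRN KO library than in any WT library, and the groups overlap for the other 7 genes.

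The question put to these genes was whether their levels in macrophages challenged with C. albicans differ without PGRN. Ccl9 and Ccl22 fell to 51.9% and 54.3% of the WT level in PGRN KO, Ccl24 rose to 1.73 times that level, and the 7 other members did not pass the test. With limma on log2(FPKM + 1), 3 of the 10 passed an adjusted p of 0.05, 1 higher and 2 lower in PGRN KO, where 24.2% of all tested genes passed, 10.4% higher and 13.8% lower. These 3 members were also those with no overlap between genotypes, against 48.8% of all tested genes. The mean was lower in PGRN KO for 8 members and higher for 2 (Ccl5 and Ccl24), and the median log2 fold change was -0.36, beside -0.03 over all tested genes. In bulk RNA, fewer cells that make a transcript and less of it per cell cannot be told apart.

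The count moved with the treatment of PGRN KO replicate 6 and of gene length. Without that library, 6 members passed (Ccl24 higher and Ccl4, Ccl6, Ccl7, Ccl9 and Ccl22 lower), where 41.3% of all tested genes did. With a correction of each library for gene length, 6 passed as well, with Ccl2 in place of Ccl6 (31.8% of all), and with quality weights for the libraries 7 passed (47.6% of all). On a TPM scale, where every library has the same sum, 5 passed, 1 higher and 4 lower (17.2% of all). This scale also turned the split over all genes from 921 higher and 1230 lower to 922 higher and 608 lower, and a scale set by the sum of fragments gave 1179 higher and 695 lower. Ccl9 and Ccl22 passed under all 17 alternatives that were run.

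**Figure D2:**
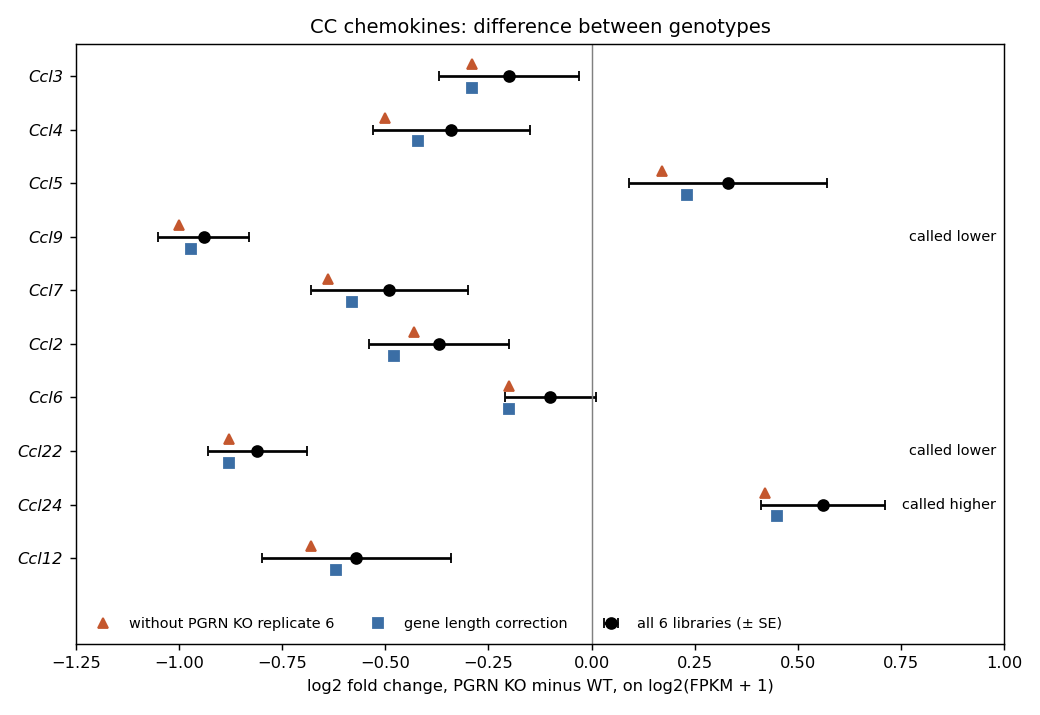
Log2 fold change of each CC chemokine between PGRN KO and WT on log2(FPKM + 1), below 0 where PGRN KO is lower, with all 6 libraries (black, ± SE), without PGRN KO replicate 6 (orange triangles) and with a correction for gene length (blue squares). All 3 estimates have the same sign for each of the 10 genes, and leaving out that library moves each of the 10 values downwards.

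Of the rodent ligands of Ccr1, Ccl9 (ENSMUSG00000019122, chr11:83572919-83578636, minus strand) stood at 991, 1047 and 928 FPKM in the 3 WT libraries. In PGRN KO it stood at 487, 500.1 and 554 FPKM. Every PGRN KO library was thus well below every WT library. The means were 989 ± 59.6 and 514 ± 35.9 FPKM (SD, n = 3 each), with a log2 fold change of -0.94 ± 0.11 (SE) and an adjusted p = 0.00246 (limma). Over the alternatives the adjusted p ran from 3.34e-05 to 0.0253, and the exact permutation p was 0.1, the smallest that 3 against 3 libraries allow. The counts were deep, with 25664 to 51006 fragments per library.

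Its neighbour Ccl6 (ENSMUSG00000018927) was at 366, 362 and 388 FPKM in WT and at 329.6, 317 and 396 FPKM in PGRN KO. PGRN KO replicate 6 was the highest of all 6 libraries, and the groups overlapped. The log2 fold change was -0.10 ± 0.11 (adjusted p = 0.534, limma). Without PGRN KO replicate 6 it was -0.20 (adjusted p = 0.0301), so that this library decided the call. A non-coding gene on the opposite strand, E230016K23Rik, overlaps Ccl6 and was at most 0.888 FPKM, and without a stated strand setting their shared reads cannot be told apart.

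The ratio of Ccl9 to Ccl6 within a library, which does not depend on the size of the library, was 2.71, 2.89 and 2.39 in WT and 1.48, 1.58 and 1.40 in PGRN KO. The ratio was lower in all PGRN KO libraries, PGRN KO replicate 6 included, and the groups did not overlap (exact permutation test, two-sided p = 0.1, the smallest possible). This ratio and 3 others were chosen after the values were seen. Over the 4 ratios the adjusted p (Benjamini-Hochberg) was 0.2.

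**Figure D3:**
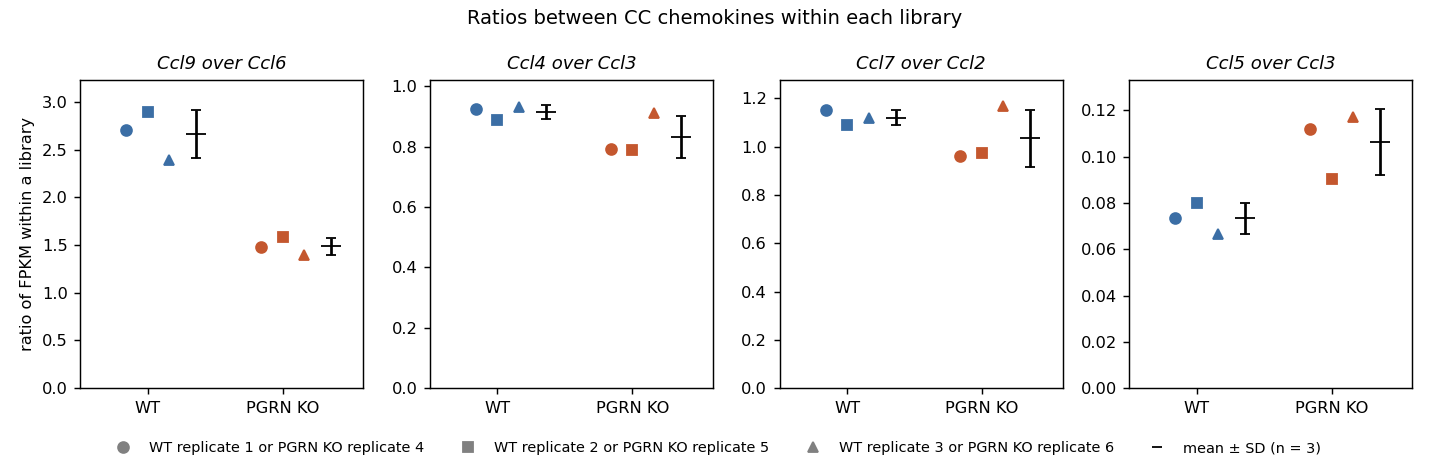
Ratio of the FPKM of 2 CC chemokines within each library (vertical axes, linear and starting at 0) in WT (blue) and PGRN KO (orange), with the symbol shape giving the replicate and the bar the mean ± SD (n = 3). Ccl9 over Ccl6 is lower and Ccl5 over Ccl3 higher in every PGRN KO library than in any WT library, and the groups overlap for the other pairs.

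Among the inflammatory chemokines, Ccl3 (ENSMUSG00000000982), the most abundant member, was at 18023, 20475 and 15053 FPKM in WT and at 14964, 14050.1 and 17282 FPKM in PGRN KO. The groups overlapped, and the log2 fold change was -0.20 ± 0.17 (adjusted p = 0.421, limma). It passed under 0 of 17 alternatives (adjusted p from 0.0681 to 1.00).

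Ccl4 (ENSMUSG00000018930) was at 16659, 18174 and 13994 FPKM in WT and at 11860.1, 11075 and 15763 FPKM in PGRN KO. PGRN KO replicate 6 lay within the WT range and the other 2 PGRN KO libraries below it. The log2 fold change was -0.34 ± 0.19 (adjusted p = 0.227, limma). Without PGRN KO replicate 6 it was -0.50 (adjusted p = 0.0232), and 4 of 17 alternatives passed. Quantile normalization gave Ccl3 and Ccl4 a difference of 0 by construction, since both held the same rank in every library. The ratio of Ccl4 to Ccl3 was 0.924, 0.888 and 0.930 in WT and 0.793, 0.788 and 0.912 in PGRN KO, which overlapped (exact permutation p = 0.2, adjusted 0.267).

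Ccl5 (ENSMUSG00000035042) was the other way round, at 1325, 1635 and 1002 FPKM in WT and at 1674, 1267 and 2030.5 FPKM in PGRN KO. The groups overlapped, and the log2 fold change of 0.33 ± 0.24 did not pass (adjusted p = 0.337, limma, and 0.115 to 0.701 over the alternatives). Single libraries moved this estimate, to 0.17 without PGRN KO replicate 6, 0.14 without WT replicate 3, 0.50 with WT replicate 2 left out and 0.51 with PGRN KO replicate 5 left out. Relative to Ccl3 in the same library, however, Ccl5 was at 0.0735, 0.0799 and 0.0666 in WT and at 0.112, 0.0902 and 0.117 in PGRN KO. All PGRN KO ratios lay above all WT ratios (exact permutation p = 0.1, the smallest possible, and 0.2 adjusted over the 4 ratios). The markers of T and NK cells, which also make Ccl5, summed to 2.41 to 2.51 FPKM in WT and 3.42 to 5.15 FPKM in PGRN KO, with 6 of 7 markers under 1 FPKM, and their part in this ratio was not tested.

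Among the monocyte attractants, Ccl2 (ENSMUSG00000035385) was at 447, 521 and 380.4 FPKM in WT and at 386, 282 and 374 FPKM in PGRN KO. Only PGRN KO replicate 4 reached into the WT range. The log2 fold change was -0.37 ± 0.17 (adjusted p = 0.150, limma), and 2 of 17 alternatives passed. A predicted gene on the opposite strand, Gm17268, overlaps Ccl2 and was listed at 0.

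Ccl7 (ENSMUSG00000035373), its neighbour, was at 514, 566 and 426 FPKM in WT and at 371, 274 and 438 FPKM in PGRN KO. PGRN KO replicate 6 again reached the WT range, and the other PGRN KO libraries lay below it. The log2 fold change was -0.49 ± 0.19 (adjusted p = 0.109, limma). It was -0.64 without PGRN KO replicate 6 (adjusted p = 0.0248), and 5 of 17 alternatives passed. The ratio of Ccl7 to Ccl2 was 1.15, 1.09 and 1.12 in WT and 0.962, 0.972 and 1.17 in PGRN KO, and the groups overlapped (exact permutation p = 0.4, adjusted 0.4).

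Ccl12 (ENSMUSG00000035352) was near the limit of detection, with 9 to 27 fragments per library. It was at 1.34, 3.15 and 2.79 FPKM in WT and at 0.968, 1.18 and 1.62 FPKM in PGRN KO, and WT replicate 1 lay within the PGRN KO range. The log2 fold change was -0.57 ± 0.23 (adjusted p = 0.114, limma), and -0.82 without WT replicate 1 (adjusted p = 0.0371). On the summed fragments the level in PGRN KO was 0.521 times that in WT (95% exact interval 0.336 to 0.795, counting error only).

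Ccl22 (ENSMUSG00000031779, chr8:94745590-94751699, plus strand), a product of dendritic cells and of macrophages exposed to type 2 cytokines, was at 13.6, 15.6 and 13.1 FPKM in WT. In PGRN KO it was at 8.07, 6.41 and 8.49 FPKM, below every WT library. The means were 14.1 ± 1.32 and 7.65 ± 1.1 FPKM, with a log2 fold change of -0.81 ± 0.12 (adjusted p = 0.00633, limma, and 0.000398 to 0.0361 over the alternatives). The libraries held 282 to 551 fragments of Ccl22. The dendritic cell markers summed to 27.4 to 34.6 FPKM in WT and 15.9 to 19.3 FPKM in PGRN KO. Nearly all of this sum was Ccr7, which activated macrophages can also express, while Cd209a was at 0 in all libraries and the remaining 4 markers had at most 1.34 FPKM. Their part in the difference of Ccl22 was not tested.

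Ccl24 (ENSMUSG00000004814, chr5:135569937-135573049, minus strand), an attractant of eosinophils that alternatively activated macrophages make, was at 1.66, 2.35 and 2.10 FPKM in WT. In PGRN KO it was at 2.85, 3.26 and 4.42 FPKM. Of the 10 members, it alone had its lowest PGRN KO value above its highest WT value. The log2 fold change was 0.56 ± 0.15 (adjusted p = 0.0396, limma). This call rested on few fragments, 36 to 99 per library, and lay close to the threshold. The log2 fold change was 0.42 to 0.67 when 1 library was left out. The call was lost without WT replicate 1 (adjusted p = 0.141), WT replicate 2 (0.0802), WT replicate 3 (0.104) or PGRN KO replicate 5 (0.0725). It was also lost with no filter (0.110) and with voom on fragments (0.0507), and 10 of 16 alternatives passed. On the summed fragments the ratio was 1.73 (95% exact interval 1.39 to 2.16, counting error only). Eosinophil markers were at the floor in both genotypes, summing to at most 0.375 FPKM, with Prg2 and Epx at 0.

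Because Ccl22 and Ccl24 are both tied to alternative activation of macrophages, a list of 19 genes of that state was examined, of which 16 were tested. Of these 2 rose and 5 fell, 43.8% of the tested genes of the list against 24.2% of all tested genes, with a median log2 fold change of -0.23 against -0.03. Chil3, a chitinase-like protein, rose (0.82 ± 0.12, adjusted p = 0.00505) and so did Mgl2, a lectin (0.72 ± 0.13, adjusted p = 0.0102). Arg1, which breaks down arginine, fell (-0.97 ± 0.14, adjusted p = 0.00559), as did the lectin Clec10a (-0.90 ± 0.09, adjusted p = 0.00201). Fn1, which encodes fibronectin, and the interleukin receptor Il4ra also fell (-0.85 ± 0.24, adjusted p = 0.0411, and -0.44 ± 0.08, adjusted p = 0.0117, all limma). Fn1 was at 97.0 FPKM in PGRN KO replicate 6 and at 179 FPKM in both other PGRN KO libraries, its log2 fold change was -0.55 without that library, and it passed under 10 of 17 alternatives. Genes of the list thus moved in both directions, as Ccl22 and Ccl24 did. The count of 7 called genes was 3 without WT replicate 1 (8.03% of all tested genes), 4 without WT replicate 2 (9.63% of all) or WT replicate 3 (9.94% of all) and 11 without PGRN KO replicate 6 (41.3% of all).

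The summed level of the 10 CC chemokines was 38341, 42803 and 32189 FPKM in WT and 30083, 27777 and 36852 FPKM in PGRN KO. The groups overlapped, with 37778 ± 5329 against 31571 ± 4717 FPKM (exact permutation test, two-sided p = 0.2). As a share of all FPKM in the library, the sum was 10.0%, 10.5% and 8.99% in WT and 8.53%, 8.22% and 8.80% in PGRN KO, and here the groups did not overlap (p = 0.1, exact, the smallest possible). As a share of all fragments it was 2.94 ± 0.244% in WT and 2.58 ± 0.259% in PGRN KO (exact p = 0.2). Ccl3 and Ccl4 made up 89.2% to 90.5% of the sum. Without them the sum was 3652 ± 505 against 3239 ± 578 FPKM (WT against PGRN KO, exact p = 0.5). Adjusted over these 4 comparisons the p-values were 0.267 and, for the last, 0.5.

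Some of the members also varied together within a genotype. Deviations from the genotype means correlated (Pearson) at 0.73 to 0.93 among Ccl2, Ccl3, Ccl4 and Ccl7. Some other pairs were as alike, such as Ccl3 with Ccl5 (0.97), Ccl4 with Ccl9 (0.95) and Ccl2 with Ccl22 (0.94). Others were less alike, such as Ccl2 with Ccl12 (0.10) and with Ccl6 (0.21). WT replicate 2 held the highest WT value of 9 of the 10 members (all but Ccl6), and PGRN KO replicate 6 held the highest PGRN KO value of 9 (all but Ccl2). These counts are given without a share over all tested genes. The median deviation of the members from the genotype mean was 0.18 (log2) in WT replicate 2, -0.15 in WT replicate 3, -0.17 in PGRN KO replicate 5 and 0.21 in PGRN KO replicate 6. For all tested genes between the shortest and the longest member, the same median was 0.21 in PGRN KO replicate 6, -0.11 in PGRN KO replicate 5, 0.02 in WT replicate 2 and 0.00 in WT replicate 3. In WT replicates 2 and 3 the members' median deviations were thus larger than those of genes of like length, and in PGRN KO replicate 6 the medians were equal.

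Ccl5 showed how the spread within a genotype and the difference between genotypes can part. Over the 6 libraries its levels correlated with those of Ccl2, Ccl3, Ccl4 and Ccl7 at r = 0.21 to 0.42. After removing the genotype means the same correlations were 0.93 to 0.97. The points share library and depth, and these values are given as a description over 6 libraries. The tested gene whose levels followed Ccl5 most closely over the 6 libraries was Ifnb1, which encodes interferon beta (r = 0.9928 among 7941 tested genes, predicted gene models left out). For Ccl9 it was Dhx38 (r = 0.9997), with 509 genes above 0.95, and for Ccl22 it was Hnrnpa2b1 (r = 0.9971), with 274 genes above 0.95. For Ccl24 it was Tmem205 (r = 0.9935). The closest genes of the remaining members were Leng9 for Ccl2, Zc3hc1 for Ccl3, Snu13 for Ccl4, Ppp1r12c for Ccl6, Ms4a4c for Ccl7 and Ctu1 for Ccl12, at r = 0.9759 to 0.9986.

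The other CC chemokine genes added little. Of 14 further symbols, 2 passed the filter and 0 were called by limma (0 at an unadjusted p under 0.05, and 0 of 16 alternatives passed for either). Ccl8, a monocyte attractant next to Ccl12, was at 1.52, 2.51 and 2.82 FPKM in WT and at 3.28, 1.76 and 5.77 FPKM in PGRN KO (a log2 difference of 0.41 ± 0.32, adjusted p = 0.380, and of 0.09 without PGRN KO replicate 6). Ccl17, the other ligand of Ccr4, was at 2.44, 1.58 and 1.73 FPKM in WT and at 1.57, 1.44 and 2.81 FPKM in PGRN KO (-0.01 ± 0.20, adjusted p = 0.988, and -0.21 without PGRN KO replicate 6). The groups overlapped for both, so that a lower level such as that of Ccl22 was not detected for Ccl17, and the difference between the 2 genes was not tested.

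Receptor transcripts of the same cells were also compared. Of 16 receptor genes, atypical receptors included, 4 were tested. Of these, 3 fell (among them Ackr3, a receptor of other chemokines) and 0 rose, with a median log2 fold change of -0.58. Over all tested genes 13.8% fell and 10.4% rose. Ccr1, which binds Ccl3, Ccl5, Ccl6, Ccl7 and Ccl9, was at 252, 237 and 244 FPKM in WT and at 161, 165 and 156 FPKM in PGRN KO (-0.60 ± 0.08, adjusted p = 0.00502). All PGRN KO libraries, replicate 6 included, lay below all WT libraries, and Ccr1 passed under all 17 alternatives.

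Ccr7, which guides activated cells to lymph nodes and binds none of the 10 members, was at 28.9, 32.4 and 25.5 FPKM in WT and at 17.1, 14.4 and 18.2 FPKM in PGRN KO (-0.77 ± 0.13, adjusted p = 0.00775). Ackr3, a scavenging receptor of other chemokines, fell from 2.32, 1.94 and 2.52 FPKM to 1.1, 1.28 and 1.26 FPKM (-0.55 ± 0.10, adjusted p = 0.0120) and passed under 14 of 16 alternatives. Ccrl2, an atypical receptor, was the most abundant at 1211, 1407 and 1019 FPKM in WT and 1001, 872 and 1064 FPKM in PGRN KO, with overlapping groups (-0.30 ± 0.15, adjusted p = 0.187, all limma). Ccr2, the receptor shared by the monocyte attractants, and the receptors of Ccl22 and of Ccl24 were near the floor. Ccr2 was at 0.258 to 0.401 FPKM, Ccr4 at 0.150 to 0.386 FPKM and Ccr3 at 0 to 0.0620 FPKM.

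**Figure D4:**
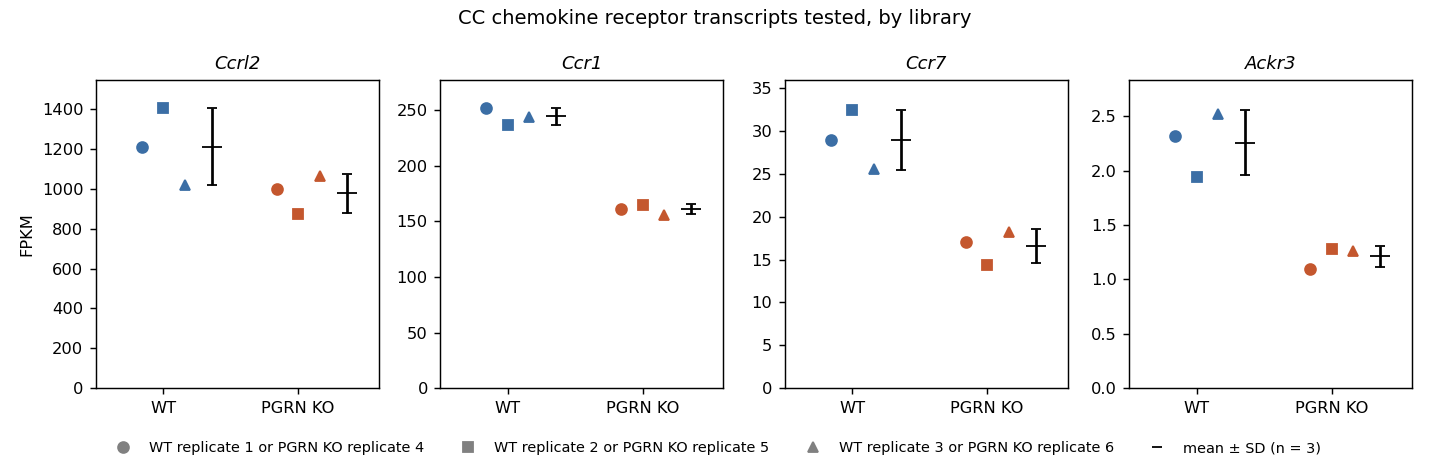
FPKM of the 4 tested genes of the receptor list (vertical axes, linear and starting at 0) in the 3 WT (blue) and 3 PGRN KO (orange) libraries. The symbol shape gives the replicate and the bar the mean ± SD (n = 3). Ackr3 is a receptor of other chemokines. Ccr1, Ccr7 and Ackr3 are lower in every PGRN KO library than in any WT library, while Ccrl2 overlaps.

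Downstream of the receptors, 43 of 48 genes of G protein signalling and its regulation were tested. Of these 3 rose and 13 fell, 37.2% of the tested genes of the list against 24.2% of all tested genes, with a median log2 fold change of -0.14. Rgs1 and Rgs2, which shut off G protein signals, fell (-1.22 ± 0.09, adjusted p = 0.00119, and -1.41 ± 0.16, adjusted p = 0.00242), as did Vav1, an exchange factor for small GTPases (-1.08 ± 0.09, adjusted p = 0.00119), and Pik3r5, a subunit of the phosphoinositide kinase that G proteins activate (-0.82 ± 0.13, adjusted p = 0.00724). Plcb3, a phospholipase, rose (0.73 ± 0.10, adjusted p = 0.00398), as did the receptor kinase Grk6 (0.43 ± 0.10, adjusted p = 0.0220) and the G protein subunit Gng2 (0.31 ± 0.09, adjusted p = 0.0445, all limma). Without PGRN KO replicate 6 the count of 16 called genes was 27 (41.3% of all tested genes), without WT replicates 1 or 2 it was 6 each (8.03% and 9.63% of all), and without WT replicate 3 it was 9 (9.94% of all). On the TPM scale 6 were called, 14.0% of the list against 17.2% of all, so that the list did not stand above the background there.

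Markers of other cell types also differed between genotypes. The mast cell markers summed to 3.01 to 3.66 FPKM in WT and 10.6 to 14.6 FPKM in PGRN KO, and the B cell markers to 1.5 to 2.49 and 6.62 to 8.92 FPKM. Among the mast cell markers, Kit alone had a lower mean in PGRN KO (0.345 FPKM in WT, 0.210 FPKM in PGRN KO). The mesothelium and fibroblast markers summed to 0.967 to 1.09 FPKM in WT and to 1.80 to 3.24 FPKM in PGRN KO. All 6 were under 1 FPKM on average, and they moved in both directions. Dcn, Col1a1 and Col3a1 had higher means in PGRN KO, whereas Krt19, Msln and Upk3b had lower ones. The sum of the resident macrophage markers was lower in every PGRN KO library, as given above. Most of that sum was Cd9, which was not called (adjusted p = 0.138, limma). The resident markers did not move as one, since Icam2 was called higher and Gata6 had a higher mean in PGRN KO (3.95 FPKM in WT, 4.50 FPKM in PGRN KO). Prg4, Timd4 and Selp had lower means. Markers of monocyte-derived peritoneal macrophages summed to 959 to 1026 FPKM in WT and 487 to 798 FPKM in PGRN KO. Nearly all of this was Cd74, which was called lower (adjusted p = 0.0252, limma), and H2-Ab1, which was not called (adjusted p = 0.0695, limma). Ly6c2 fell from 12 to 3.39 FPKM (adjusted p = 0.00119, limma), and the remaining 2, Ccr2 and Fcrls, averaged under 1 FPKM. Of the neutrophil markers, S100a8 fell (log2 fold change -1.07, adjusted p = 0.00142, limma), while Ly6g and Cxcr2 were at 0 in all libraries. The rest were at most 0.443 FPKM in any library and were not tested. Among them Camp, S100a9 and Retnlg had higher means in PGRN KO and Ngp a lower one, so that the neutrophil markers did not fall as a set. The part of these cells in the levels of Ccl9, Ccl22, Ccl24 and the receptors was not tested.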

How the data were processed

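RNA of macrophages from 3 WT and 3 PGRN KO samples was sequenced. According to the submitters' notes, the authors aligned reads to GRCm38 with HISAT2 2.0.5, counted with featureCounts 1.5.0-p3 and used DESeq2 1.20.0, whereas the methods of the study name HISAT and HTSeq, with no statement on strand. The deposited values are FPKM. After multiplication by gene length, 100.0% of the values above 0 were whole multiples of a step fixed for each library (tolerance 0.001 of a step), which gave the fragments. The library size behind the FPKM was 0.925 to 1.088 times their sum, and equalled the median-ratio size factor times 16980300, to the nearest 100, in all 6 libraries.

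FPKM are not counts, so genotypes were compared with limma 3.58.1 (R 4.3.3) on log2(FPKM + 1), a scale that understates the change of low genes, over genes with a mean of at least 1, with a mean-variance trend, two-sided, Benjamini-Hochberg adjustment over 8882 genes and a threshold of 0.05. The fit was also run on simulated data that held no outlying library and no trend with gene length, so that run does not bear on PGRN KO replicate 6. Single sums and ratios were compared by exact permutation (scipy 1.17.1), which cannot go below 0.1 for 3 against 3. Coding sequences were aligned with Biopython 1.88. The text names all 10 members, Grn, tested receptors and further CC chemokines, up to 4 called genes in each direction of the other lists, and the tested gene most correlated with each member. 1 item of the lists is not reported here. The members and the lists were chosen with earlier results of these data known. Alternatives were pseudocounts of 0.1 and 0.01, no filter, a minimum of 5, TPM, quantile and fragment-sum scales, no trend, quality weights, voom on fragments, a loess correction for gene length (span 0.5) and leaving out each library. No source mentions molecular identifiers, and intervals describe counting error alone.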

Additional observations from a re-analysis of the deposited data

How the results depend on the processing

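Of the single-gene values of the 10 members, 147 kept their direction and side of the threshold (Ccl3 and Ccl4 under quantile normalization, fixed at 0 by construction, are counted here), 14 passed where they had not, 6 no longer passed, all of them for Ccl24, and 1 changed sign, that of Ccl6 under quantile normalization (0.013 on the log2 scale). The count of 3 members called became 5 on the TPM scale, 7 with quality weights and 6 with the length correction, and 2 to 6 when 1 library was left out. The signalling count of 16 became 6 on the TPM scale, 29 with weights and 6 to 27 when 1 library was left out. The alternative activation count of 7 became 11 with weights and 3 to 11 when 1 library was left out. The count over all genes of 2151 became 1366 without the filter, where more genes were tested, 4225 with weights and 713 to 3668 when 1 library was left out (713, 855 and 883 without WT replicates 1, 2 and 3, and 1390 and 3668 without PGRN KO replicates 4 and 6). The receptor count of 3 ran from 2 to 3, and the summed level from -0.376 to -0.165 (log2) when 1 library was left out. Apart from the number of genes tested without the filter, the cause of these shifts was not tested. No paired analysis was possible because replicate numbers 1, 2 and 3 occur in WT alone and 4, 5 and 6 in PGRN KO alone. Depth limits Ccl12 (9 to 27 fragments) and Ccl24 (36 to 99 fragments).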
